A study of Mus musculus with 8 samples.

Results

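The receptors through which ovarian and adrenal steroids, prolactin, growth hormone, insulin-like growth factor 1 and oxytocin act were examined in sensory neurons of dorsal root ganglia (DRG) from female and male mice. Members were taken by gene symbol, and 9 of the 22609 genes in the data belonged to the set: Esr1, Esr2, Pgr, Nr3c1, Nr3c2, Prlr, Ghr, Igf1r and Oxtr. Each mouse had WGA-488, a fluorescent lectin that travels back along axons, injected into the hindpaws and thigh muscles of both sides, and labelled neurons were then sorted from lumbar ganglia and sequenced by the SMART-seq2 protocol. There were 4 libraries from females and 4 from males, all young adult naive C57BL/6J mice, with the females taken in the oestrous phase. Both sexes received the tracer, each library pooled the ganglia of both sides, and the sort joined neurons of skin with neurons of muscle, so the 2 targets cannot be told apart.

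Steroid receptors are transcription factors that bind hormone inside the cell and then act on target genes, often through coactivators and heat shock proteins. The receptors for prolactin and growth hormone are cytokine receptors that signal through JAK2 and STAT5, the insulin-like growth factor 1 receptor is a tyrosine kinase, and the oxytocin receptor couples to G proteins. In sensory ganglia these receptors are studied because sex hormones and prolactin can change the excitability of pain-sensing neurons.

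The steroid receptors share a DNA-binding domain, and the part of it that reads the hormone response element, the P box, separates oestrogen receptors from the rest of the set. These stretches of 60 coding bases are shown to let the members be compared where they bind DNA, and the capitals mark the 18 bases that encode the P box of the first zinc finger. They were read 5′ to 3′ on the strand of the gene from GENCODE M1 transcripts (build mm9) and lie at chr10:5599735-5599794, minus strand, in exon 4 of 10 of Esr1, at chr12:77266437-77266496, minus strand, in exon 3 of 10 of Esr2, at chr9:8903687-8903746, plus strand, in exon 2 of 8 of Pgr, and at chr8:79609505-79609564, plus strand, in exon 2 of 8 of Nr3c2.
Esr1: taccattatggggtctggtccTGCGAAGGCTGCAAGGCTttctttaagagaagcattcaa
Esr2: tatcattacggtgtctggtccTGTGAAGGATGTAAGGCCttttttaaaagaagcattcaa
Pgr: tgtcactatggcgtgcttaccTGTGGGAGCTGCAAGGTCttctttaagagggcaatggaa
Nr3c2: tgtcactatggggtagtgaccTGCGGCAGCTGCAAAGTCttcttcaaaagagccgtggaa

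The 2 oestrogen receptors were identical at 51 of the 60 bases, and Pgr and Nr3c2 at 48 of 60. An oestrogen receptor and either of the other receptors shared 37 to 40 of the 60 bases. Within the 18 capitals, the matches were 14 and 15 within these pairs and 10 to 12 between them. This likeness did not reach the length of a read. Reads were 50 bases long, and the longest identical run between 2 members was 24 bases, between Nr3c2 and Pgr, among the pairs examined. It was 17 bases between Esr1 and Esr2, 17 between Nr3c1 and Nr3c2 and 14 between Prlr and Ghr. Only protein-coding transcripts were searched for shared windows. No window of 50 bases in those of 7 members also occurred in those of another gene. In Prlr, 109 of 14248 windows (0.765%) did, and 155 of its exon bases lie on the same strand within exons of Agxt2, while in Nr3c1 4 of 7537 windows did. In addition, 247 exon bases of Nr3c2 lie opposite Gm10649. Whether the counting used strand is not given in the sources used here, so reads of these bases cannot be assigned with certainty.

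The libraries held 4.80 to 7.33 M gene reads (M, 1e6 reads), and 3 reads, the limit that a count of 0 allows, stood for 0.409 to 0.625 counts per 1e6 gene reads (CPM). Levels are given in CPM, and fold changes are log2, female over male, with their standard error (SE) from the quasi-likelihood test of edgeR on the raw counts of all genes. The 9 receptors took 7747 reads in all 8 libraries together. Female replicate 4 stood apart from the rest: its counts differed from the other female libraries by a chi-square per degree of freedom of 30.1 to 44.9. Its deviations from the mean of its own sex ran against exon length (Spearman rho of -0.55 across 12393 genes, which are not independent replicates). The deviations of female replicates 1 to 3 ran with exon length (rho 0.365, 0.384 and 0.239), and those of the males were near 0 (-0.0174 to 0.0259). Deviations within a sex balance each other in each gene, so the values of female replicates 1 to 3 are not independent of that of female replicate 4. They do not compare the sexes. Results that rest on female replicate 4 are given with and without it.

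The sexes on the labels were checked with Xist, at 395 to 764 reads in females against 0 to 6 in males, and with Ddx3y, at 0 reads in females against 240 to 309 in males. The neuronal label was checked with Tubb3, a neuronal tubulin, at 5008 ± 935 CPM in females and 4840 ± 118 CPM in males (SD, n = 4 each). Transcripts of other cells of the ganglion were also counted. The summed level of 15 markers of satellite glia and Schwann cells was 11639 to 14952 CPM in females and 5452 to 11236 CPM in males, without overlap, and 5 of the 15 markers were higher in females at an unadjusted p under 0.05, against 4.37% of all tested genes that were higher and 2.61% that were lower. That of 10 fibroblast markers was 102 to 153 CPM in females and 45.2 to 86.9 CPM in males, again without overlap, and 4 of the 6 tested were higher in females. Macrophage markers summed to 7.84 to 21.1 CPM in females and 3.96 to 9.65 CPM in males, with 2 of 3 tested higher in females. Endothelial and mural markers summed to 56.9 to 89.9 and 75.5 to 101 CPM, with 1 of 3 tested lower in females. Among neuronal lists, peptidergic markers summed to 4776 to 6211 CPM in females and 5705 to 8161 CPM in males, with 4 of 6 lower in females at an unadjusted p under 0.05, and large myelinated neuron markers to 795 to 1131 and 471 to 888 CPM, with 2 of 8 higher. Non-peptidergic markers (1337 to 2340 and 2012 to 2545 CPM) and 15 pan-neuronal markers (25585 to 36871 and 25300 to 28994 CPM) also overlapped between the sexes, with 0 of 7 and 1 of 15 genes, Nefh, at that level. None of the markers of any list was at 0 in every library. In such bulk samples, fewer cells of a type and less RNA per cell cannot be told apart, and the part of these cells and neuron classes in the receptor levels was not tested.

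Progesterone receptor was the member with the largest sex difference. Pgr, a steroid receptor whose expression oestrogen raises in many tissues (chr9:8900419-8965425, plus strand), stood at 5.09, 3.64, 6.46 and 4.72 CPM in female replicates 1 to 4 and at 1.5, 3.71, 2.48 and 2.96 CPM in male replicates 1 to 4. The groups overlapped only in that female replicate 2 lay just under male replicate 2, so 3 of the 4 females were above every male. The means were 4.98 ± 1.16 CPM in females and 2.66 ± 0.927 CPM in males (SD, n = 4 each). The fold fitted by edgeR was 1.84 (95% interval 1.14 to 2.96). The log2 fold change was 0.88 ± 0.31 (SE), with an unadjusted p of 0.017 that missed the threshold after Benjamini-Hochberg adjustment over all 12518 genes tested (edgeR, adjusted p = 0.662). These values rest on 11 to 37 reads per library, and the counting error alone was 20.6% of the mean read count, and the spread was 23.3% of the mean among females and 34.8% among males.

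Pgr was the only receptor with an unadjusted p under 0.05, 1 of the 7 that passed the filter on low counts. Without female replicate 3 its log2 fold change was 0.73 (edgeR, unadjusted p = 0.0545) and no receptor reached that level, against 5.19% of all genes tested. Over all 8 libraries, 6.98% of all tested genes reached that level, with 4.37% higher in females and 2.61% higher in males. Set against that background, 1 such gene among 7 is not a result about the receptors as a set. No receptor passed at an adjusted p under 0.05, against 0.0879% of all tested genes, and the adjusted p of the 7 receptors ran from 0.662 to 0.995. Between the sexes, 3 receptors had a log2 fold change above 0 and 4 below it, the median was -0.01, and for all tested genes the median was 0.003. In none of the 7 did the levels of the sexes stay apart, whereas they did in 5.52% of all tested genes.

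**Figure D1:**
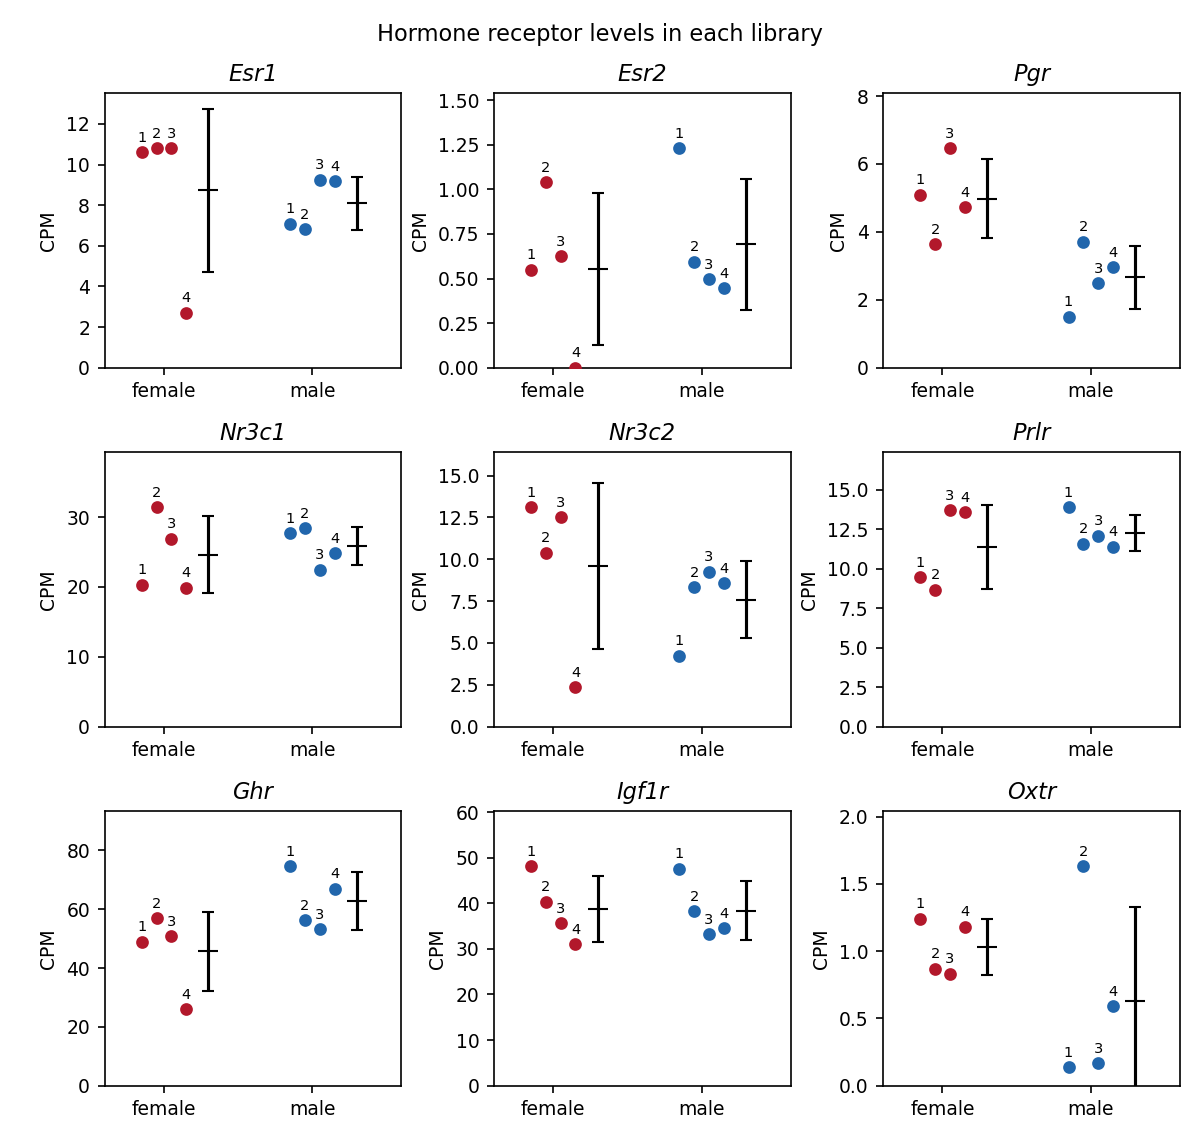
Levels of the 9 receptors in CPM (vertical axes, each from 0) in the 4 female and 4 male libraries. Points are libraries with their replicate number, and bars are the mean ± SD, cut at 0 for Oxtr. Pgr has 3 females above every male, and female replicate 4 is far below the other females in Esr1, Nr3c2 and Ghr.

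Oestrogen receptor alpha showed little difference over all libraries, and its value turned on female replicate 4. Esr1, the main nuclear receptor for oestradiol (chr10:5340927-5734948, minus strand), was at 10.6, 10.8 and 10.8 CPM in female replicates 1 to 3 and at 2.70 CPM in female replicate 4. The male replicates 1 to 4 were at 7.09, 6.83, 9.25 and 9.17 CPM. The first 3 females thus lay close together and above all males, and the remaining female lay below all males, with 16 reads against 52 to 77. Over the 8 libraries the means were 8.72 ± 4.02 CPM in females and 8.09 ± 1.30 CPM in males (SD, n = 4 each), with a log2 fold change of 0.09 ± 0.36 (SE; edgeR, unadjusted p = 0.805, adjusted p = 0.957). Without female replicate 4 it was 0.39 (edgeR, unadjusted p = 0.0558, adjusted p = 0.465).

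Oestrogen receptor beta was near the limit of detection. Esr2, the second nuclear oestrogen receptor (chr12:77221406-77278246, minus strand), had 4, 6, 3 and 0 reads in female replicates 1 to 4 and 9, 4, 3 and 3 reads in male replicates 1 to 4. It did not pass the filter and was not tested. Pooled over each sex, its level was 0.547 CPM in females (exact Poisson 95% interval 0.291 to 0.935) and 0.707 CPM in males (0.426 to 1.10), and these intervals cover counting error only. A difference between the sexes was not detectable at this depth. Over all libraries Esr1 took 423 of the 455 oestrogen receptor reads, 93.0% (exact Clopper-Pearson 95% interval 90.2 to 95.1), although its exons are also longer, 13.68 kb against 3.37 kb.

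Of the corticosteroid receptors, the levels of Nr3c1 overlapped fully between the sexes, and those of Nr3c2 overlapped through female replicate 4. Nr3c1, the glucocorticoid receptor, which binds corticosterone in mice and acts as the stress hormone receptor of most cells, was at 20.3, 31.4, 26.9 and 19.9 CPM in female replicates 1 to 4 and at 27.7, 28.4, 22.5 and 24.8 CPM in male replicates 1 to 4. The males fell inside the range of the females. The means were 24.6 ± 5.54 CPM in females and 25.8 ± 2.72 CPM in males (SD, n = 4 each), and the log2 fold change was -0.09 ± 0.18 (SE; 95% interval -0.49 to 0.31; edgeR, unadjusted p = 0.626, adjusted p = 0.913).

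Nr3c2, the mineralocorticoid receptor, which binds aldosterone and also corticosterone (chr8:79423341-79768911, plus strand), was at 13.1, 10.4, 12.5 and 2.36 CPM in female replicates 1 to 4 and at 4.23, 8.32, 9.25 and 8.58 CPM in male replicates 1 to 4. As with Esr1, 3 females lay above all males and female replicate 4, with 14 reads, below all males. The means were 9.58 ± 4.95 CPM in females and 7.59 ± 2.28 CPM in males (SD, n = 4 each), and the log2 fold change was 0.33 ± 0.44 (SE; edgeR, unadjusted p = 0.476, adjusted p = 0.876). Without female replicate 4 it was 0.65 (edgeR, unadjusted p = 0.0233, adjusted p = 0.383). The ratio of Nr3c1 to Nr3c2 reads within a library, which does not depend on depth, ran from 1.56 to 8.43 in females and from 2.43 to 6.55 in males (exact permutation test, two-sided, all 70 labelings, p = 0.714, adjusted over 3 ratios 0.714). The difference in this ratio was -0.22 on the log2 scale, and -0.71 without female replicate 4 (exact permutation test, p = 0.171).

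**Figure D2:**
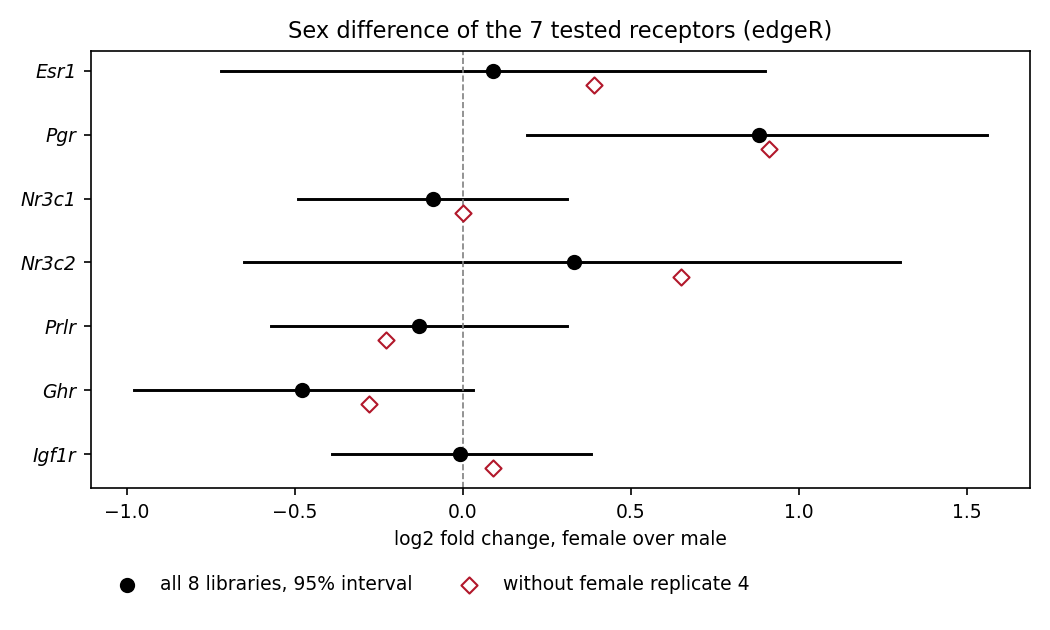
Log2 fold change, female over male, of the 7 tested receptors from edgeR. Filled points with lines are the estimates of all 8 libraries with their 95% intervals, and open diamonds are the estimates without female replicate 4. The interval of Pgr, 0.19 to 1.56, lies above 0, and leaving out that library moves Esr1 from 0.09 to 0.39 and Nr3c2 from 0.33 to 0.65.

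Growth hormone receptor had the highest read count of the set and was lower in females on average. Ghr, the liver-enriched receptor through which growth hormone raises circulating insulin-like growth factor 1 (chr15:3267760-3533492, minus strand), was at 48.9, 56.9, 50.8 and 26.1 CPM in female replicates 1 to 4 and at 74.6, 56.3, 53.2 and 67.0 CPM in male replicates 1 to 4. Male replicates 1 and 4 were above every female, and male replicates 2 and 3 lay within the range of the females. The means were 45.7 ± 13.5 CPM in females and 62.8 ± 9.88 CPM in males (SD, n = 4 each). The level fitted by edgeR was 1.39 times higher in males. The log2 fold change was -0.48 ± 0.23 (SE; 95% interval -0.98 to 0.03), with an unadjusted p of 0.0621 (edgeR, adjusted p = 0.724). With DESeq2 the unadjusted p was 0.0462 and the adjusted p 0.704. Without female replicate 4 the log2 fold change was -0.28 (edgeR, unadjusted p = 0.0508, adjusted p = 0.454).

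Prolactin receptor, the relative of Ghr in the cytokine receptor family, was at similar levels in both sexes. Prlr (chr15:10106993-10303504, plus strand) was at 9.49, 8.68, 13.7 and 13.6 CPM in female replicates 1 to 4 and at 13.9, 11.6, 12.1 and 11.4 CPM in male replicates 1 to 4. The females split into a lower and a higher pair with the males between or just above them. The means were 11.4 ± 2.69 CPM in females and 12.2 ± 1.15 CPM in males (SD, n = 4 each), with a log2 fold change of -0.13 ± 0.20 (SE; 95% interval -0.57 to 0.31; edgeR, unadjusted p = 0.522, adjusted p = 0.886). In terms of fold, this interval runs from 0.675 to 1.24. The ratio of Prlr to Ghr reads was 0.152 to 0.523 in females and 0.170 to 0.227 in males. On the log2 scale its SD was 0.77 in females and 0.18 in males (n = 4 each). The log2 means differed by 0.37 between the sexes (two-sided exact permutation test, p = 0.457, adjusted 0.686). The highest of these ratios was that of female replicate 4, and the difference was 0.03 without that library and 0.62 without female replicate 2.

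Igf1r, the tyrosine kinase receptor for insulin-like growth factor 1 that supports neuronal growth and survival (chr7:75097713-75371484, plus strand), was at 48.1, 40.3, 35.6 and 31.0 CPM in female replicates 1 to 4 and at 47.6, 38.3, 33.2 and 34.5 CPM in male replicates 1 to 4. The sexes covered nearly the same range, with means of 38.7 ± 7.30 CPM in females and 38.4 ± 6.52 CPM in males (SD, n = 4 each). The log2 fold change was -0.01 ± 0.17 (SE; edgeR, unadjusted p = 0.972, adjusted p = 0.995), and its 95% interval of -0.39 to 0.38 was the narrowest of the 7. Insr, the insulin receptor that can pair with Igf1r, had lower counts in every library. The ratio of Igf1r to Insr reads was 2.59 to 3.89 in females and 2.91 to 5.45 in males (two-sided exact permutation test, p = 0.314, adjusted 0.686). The smallest p that 4 against 4 libraries allow is 0.0286.

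Oxytocin receptor was the other member below the filter. Oxtr, a G protein-coupled receptor (chr6:112423678-112440884, minus strand), had 9, 5, 4 and 7 reads in female replicates 1 to 4 and 1, 11, 1 and 4 reads in male replicates 1 to 4. The single male with 11 reads was above all females and the other males were at or below them. Pooled levels were 1.05 CPM in females (exact Poisson 95% interval 0.681 to 1.55) and 0.632 CPM in males (0.368 to 1.01), and no test was made.

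The deviation of female replicate 4 differed in size between the receptors. Among the 7 tested receptors, its level relative to the mean of the other females was lowest in Nr3c2. Nr3c2 was 5.08 times higher in the others, followed by Esr1 at 3.98 times and Ghr at 2 times. Of all tested genes, 0.711% lay at least as far below the other females as Nr3c2 did, 1.74% as far as Esr1 and 15.2% as far as Ghr. Nr3c1 and Igf1r were 1.32 and 1.33 times higher in the other females, Pgr differed by 1.07 times, and Prlr was higher in female replicate 4 than in the mean of the others. The exons of these receptors spanned 6.47 kb in Nr3c2, 13.68 kb in Esr1, 9.05 kb in Ghr and 15.49 kb in Prlr, and the part of exon length in the deviation of single receptors was not tested. Without female replicate 4, the sexes did not overlap in 2 of the 7 receptors, Esr1 and Nr3c2, as in 11.8% of all tested genes. At an unadjusted p under 0.05, also 2 of the 7 receptors passed without this library, Pgr and Nr3c2, against 11.1% of all genes tested.

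**Figure D3:**
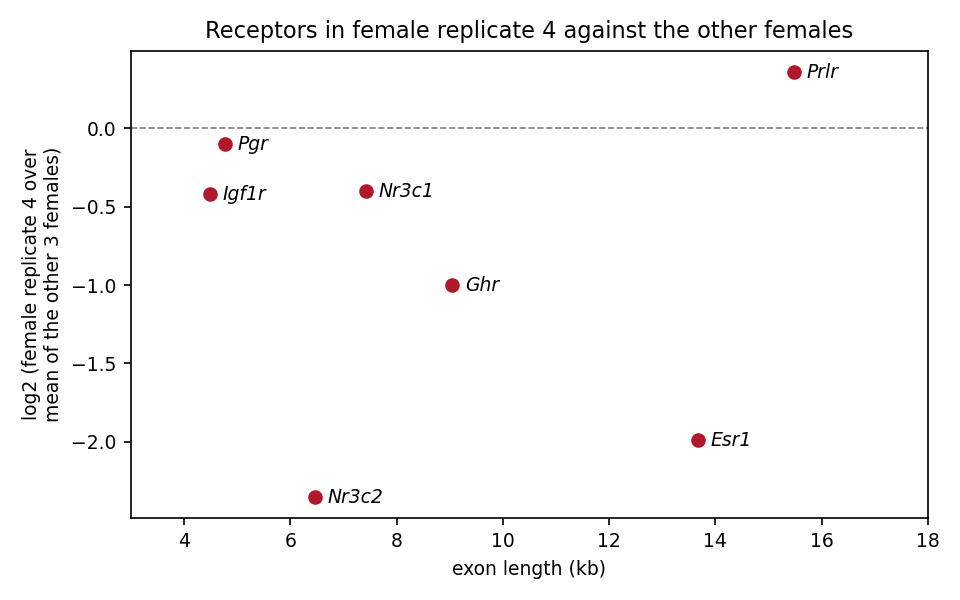
Log2 of the CPM of female replicate 4 over the mean of the other 3 females (vertical axis) against exon length in kb (horizontal axis), with 1 point for each of the 7 tested receptors. Nr3c2 (-2.35) and Esr1 (-1.99) lie lowest, and Prlr (0.36), with the longest exons, lies above 0.

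Levels of different receptors were compared per exon length, as CPM per kb of exon (RPKM), over all 8 libraries. Igf1r led with 8.62 ± 1.43 RPKM, followed by Ghr with 5.99 ± 1.57 and Nr3c1 with 3.40 ± 0.551 RPKM (SD, n = 8). These receptors kept that order in 8 of 8 libraries, although the range of Igf1r overlapped that of Ghr and the range of Ghr that of Nr3c1. Nr3c2 came next with 1.33 ± 0.575 RPKM, below Nr3c1 in all 8 libraries and with no overlap of the ranges.

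Pgr at 0.800 ± 0.330 RPKM, Prlr at 0.762 ± 0.127 RPKM and Esr1 at 0.614 ± 0.204 RPKM (SD, n = 8) followed. Nr3c2 was above Pgr in 7 of 8 libraries, Pgr above Prlr in 5 and Prlr above Esr1 in 6, so the ranges of neighbours here overlapped. The order of Pgr and Prlr differed by sex. Pgr was above Prlr in every female, but among males only in male replicate 2 (0.778 against 0.748 RPKM). Esr2 at 0.185 ± 0.111 RPKM and Oxtr at 0.162 ± 0.102 RPKM (SD, n = 8) were lowest, and Esr1 was above Esr2 in 8 of 8 libraries. Among 16847 genes detected with a length, the receptors stood between percentile 17.7 (Oxtr) and percentile 67.7 (Igf1r). The order depended on the gene models. Per length of the longest annotated transcript Ghr came first with 13.0 ± 3.41 RPKM, ahead of Igf1r with 9.23 ± 1.53 RPKM (SD, n = 8). The order of Pgr, Prlr and Esr1 was then the reverse, with Esr1 at 1.33, Prlr at 1.19 and Pgr at 0.980 RPKM, and Esr1 stood next to Nr3c2 with 1.45 RPKM. The annotation gives Igf1r a 3′ UTR of at most 197 bases, and which gene models the authors counted with is not given in the sources used here.

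**Figure D4:**
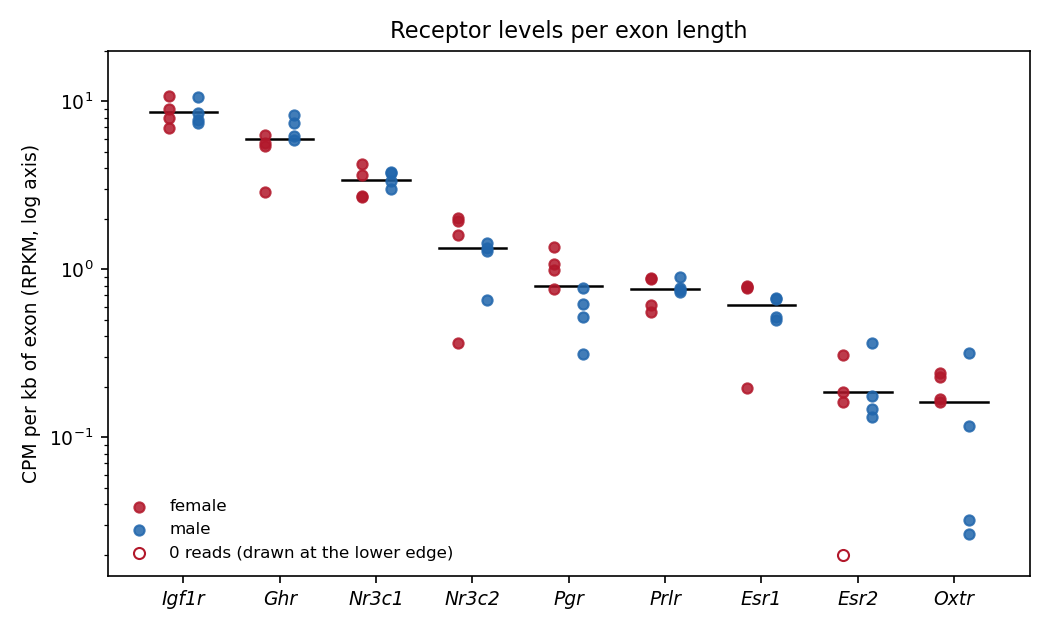
Level of the 9 receptors as CPM per kb of exon (RPKM, log axis) in each female and male library, with a line at the mean of the 8 libraries. Levels fall from 8.62 RPKM for Igf1r to 0.162 RPKM for Oxtr, and the open point marks Esr2 in female replicate 4, which had 0 reads and is drawn at the lower edge.

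The genes whose profile over the 8 libraries was most like that of a receptor were found by the root mean square distance between centred log2(CPM + 1) values, for receptors with a mean of at least 50 reads. Esr1 was nearest to Kdm4c (distance 0.103) and Adcy7 (0.125), against a median distance of 0.578 over all genes. Nr3c2 was nearest to Dag1 (0.119) and Epas1 (0.146), against a median of 0.701. Ghr was nearest to Zc3hav1 (0.050) and Trib2 (0.078). Female replicate 4 was the lowest library in Esr1, Nr3c2, Ghr, Igf1r and Nr3c1, and the same libraries enter every distance. Igf1r was nearest to Klhl5 (0.060) and Kif20a (0.070), Prlr to Wdr46 (0.083) and Tpcn2 (0.084), and Nr3c1 to Ppm1b (0.094) and Scaf11 (0.110).

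The peptide ligands of the receptors had few or no reads, and none passed the filter on low counts. Prl, Gh and Oxt, which encode prolactin, growth hormone and oxytocin, had 0 reads in all 8 libraries, a count that allows a level of up to 0.409 to 0.625 CPM per library. Igf1, which encodes insulin-like growth factor 1, had 10, 17, 7 and 8 reads in female replicates 1 to 4 and 2, 26, 8 and 30 reads in male replicates 1 to 4, with the widest spread among the males. Its level reached 4.44 CPM in male replicate 4. Igf2, the related growth factor, had 1 read in male replicate 3 and none elsewhere.

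Other genes of these pathways were taken as 8 lists with 164 genes, of which 121 were tested. At an unadjusted p under 0.05, 6 were higher and 2 lower in females, together 6.61% against 6.98% of all tested genes, and none had an adjusted p under 0.05 in edgeR. DESeq2 gave 2 of them an adjusted p under 0.05, Ddit4 (0.0332) and Pappa (0.0333), as it did 0.255% of all genes. Among 17 tested nuclear receptor cofactors and chaperones, such as the coactivator Ncoa1 and the heat shock protein Hsp90ab1, none reached an unadjusted p under 0.05, and the median log2 fold change was 0.01. Among 11 other steroid receptors (median 0.08, or -0.12 without female replicate 3), 1 did. Paqr6, a membrane progesterone receptor, was at 37.9 ± 7.86 CPM in females and 24.3 ± 7.16 CPM in males (SD, n = 4 each), a log2 fold change of 0.63 ± 0.23 (SE; edgeR, unadjusted p = 0.0231, adjusted p = 0.673). Its lowest female and its highest male were both at 30.2 CPM.

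Of 17 genes that glucocorticoids induce in many cells, 14 had a log2 fold change above 0, as had 50.7% of all tested genes, and the median was 0.21. An unadjusted p under 0.05 was reached by 1 of the 17 (5.88%), against 6.98% of all tested genes. Ddit4, a stress-induced inhibitor of mTOR signalling, was at 36.2, 25.5, 38.5 and 31.8 CPM in female replicates 1 to 4 and at 14.9, 21.4, 21 and 18.8 CPM in male replicates 1 to 4. All females were above all males. The log2 fold change was 0.78 ± 0.18 (SE; edgeR, unadjusted p = 0.00112, adjusted p = 0.424). Without female replicate 4, 12 of the 17 were above 0. The median of the list stayed above 0 under all alternatives, from 0.13 without female replicate 4 to 0.34 without female replicate 2, and under both other scalings at 0.22 and 0.23. These alternatives share most of their libraries and are not independent of each other. Nr3c1 itself, whose ligand induces these genes, had a log2 fold change of -0.09.

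Of 8 oestrogen-induced genes tested, 1 was higher in females at an unadjusted p under 0.05, where 4.37% of all tested genes were, so 1 gene is near the background here and in the next list. Igfbp4, which binds insulin-like growth factors and belongs to 2 of the lists, was at 218, 205, 235 and 274 CPM in female replicates 1 to 4 and at 78.3, 176, 182 and 127 CPM in male replicates 1 to 4. All females were above all males, with a log2 fold change of 0.71 ± 0.23 (SE; edgeR, unadjusted p = 0.0118, adjusted p = 0.662). Of 14 tested genes of steroid synthesis and metabolism (median 0.10, or 0.01 without female replicate 4), 1 passed. Hsd17b10, a mitochondrial dehydrogenase, was at 63.4 ± 8.76 CPM in females and 52.0 ± 0.898 CPM in males (SD, n = 4 each; log2 fold change 0.27, edgeR, unadjusted p = 0.0480, adjusted p = 0.714). Another 8 genes of that list had no read in any library, among them Cyp19a1, which encodes aromatase, and Cyp11a1, Cyp17a1 and Hsd3b1, which act early in steroid synthesis.

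Among 21 tested genes of prolactin and growth hormone signalling, only Shc1 had an unadjusted p under 0.05 (4.76%, against 6.98% of all tested genes). Shc1, an adaptor protein between receptors and the Ras pathway, was at 225, 222, 196 and 130 CPM in female replicates 1 to 4 and at 298, 230, 247 and 271 CPM in male replicates 1 to 4. All males were above all females, with a log2 fold change of -0.45 ± 0.18 (SE; edgeR, unadjusted p = 0.0261, adjusted p = 0.679). The median over this list was -0.16 and 5 of the 21 were above 0, against 50.7% of all tested genes. Without female replicate 4 the median was -0.09 with 8 of the 21 above 0, and without male replicate 2 it was -0.02.

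The insulin-like growth factor list held 4 of 25 tested genes with an unadjusted p under 0.05, 3 higher and 1 lower in females, against 6.98% of all tested genes with such a p. In 5 of the 25 the sexes did not overlap, against 5.52% of all tested genes. The median log2 fold change of this list was 0.04, with 0.15 without female replicate 4 and -0.04 without female replicate 1. Pappa, a protease that cleaves Igfbp4 and so frees the growth factor, was at 7.42, 8.33, 9.58 and 5.73 CPM in female replicates 1 to 4 and at 11.5, 15.2, 17.8 and 13.9 CPM in male replicates 1 to 4. All males were above all females, with a log2 fold change of -0.93 ± 0.21 (SE; edgeR, unadjusted p = 0.00118, adjusted p = 0.424). Foxo1, a transcription factor that insulin signalling keeps out of the nucleus, was at 7 ± 2.06 CPM in females and 4.30 ± 0.856 CPM in males (SD, n = 4 each; log2 fold change 0.69, edgeR, unadjusted p = 0.0236, adjusted p = 0.673). The remaining genes of this count were Igfbp4, given above, and Igfbp3, another binding protein, with a log2 fold change of 0.39 (edgeR, unadjusted p = 0.0244, adjusted p = 0.673). Among 9 tested genes of the oxytocin and vasopressin system none reached an unadjusted p under 0.05, and their median was -0.20, or -0.08 without female replicate 4.

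**Figure D5:**
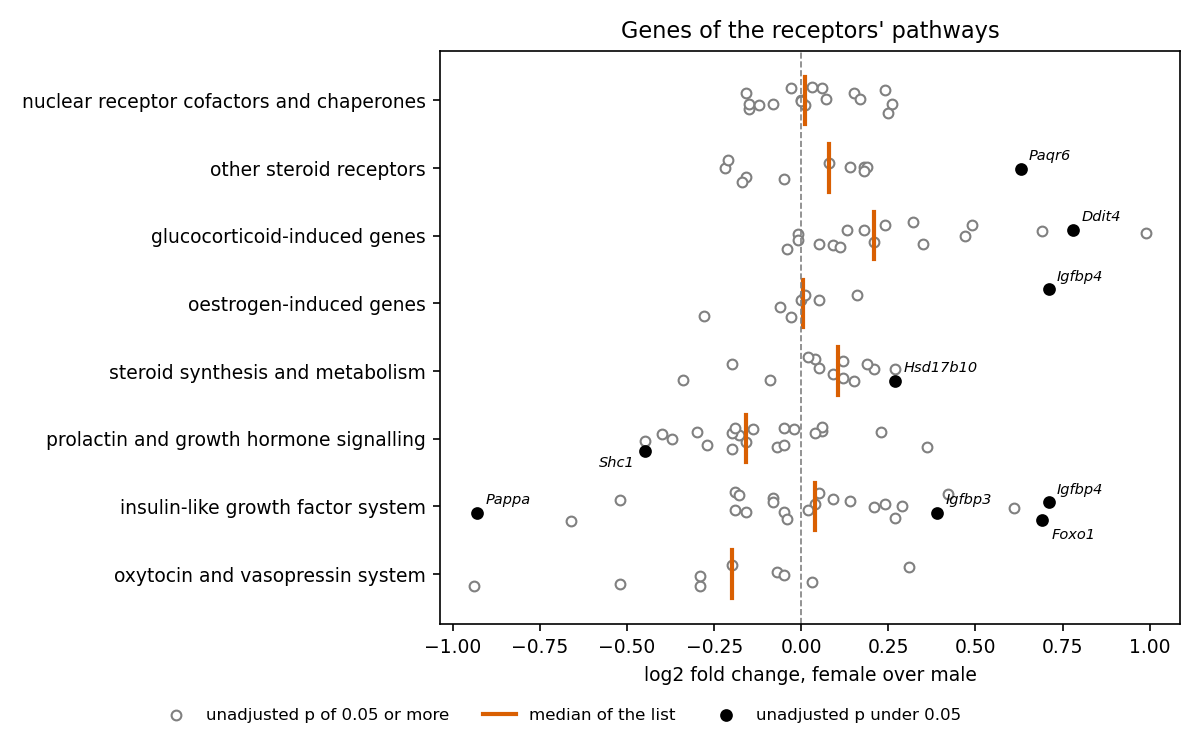
Log2 fold change, female over male (edgeR), of every tested gene in the 8 pathway lists, with 1 row of points for each list. Filled points with names have an unadjusted p under 0.05, open points do not, and orange lines are the medians, which run from -0.20 to 0.21. The points are spread at random within a row.

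Libraries without female replicate 4 gave 10 list genes higher and 7 lower in females at an unadjusted p under 0.05, in place of 6 and 2, while the share of all tested genes at that level rose from 6.98% to 11.1%. Ddit4 (log2 fold change 0.80, edgeR, unadjusted p = 0.000742, adjusted p = 0.157), Pappa (-0.81, unadjusted p = 0.00176, adjusted p = 0.223), Shc1, Foxo1 and Igfbp3 were among them, whereas Igfbp4 (log2 fold change 0.63, unadjusted p = 0.06), Paqr6 (0.53, unadjusted p = 0.0509) and Hsd17b10 (0.17, unadjusted p = 0.0571) were not. The summed levels of glial markers given above also differed between the sexes, and whether glial RNA contributed to the levels of these genes was not tested.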

How the data were processed

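Libraries of sorted neurons, 4 per sex, were sequenced as single reads of 50 bases. The authors aligned reads to mm9 with TopHat2 and counted them with HTSeq. The deposited values are raw read counts per gene symbol, not normalized, and molecular identifiers are not mentioned, so intervals and limits cover counting error only. Tool versions, annotation and strand setting are not given in the sources used here. Replicates are separate libraries whose numbers come from the labels.

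Tests over all genes used edgeR 4.0.16 (quasi-likelihood, robust, TMM scaling, default expression filter, sex alone) in R 4.3.3, with Benjamini-Hochberg adjustment over 12518 genes. The tool of the study, DESeq, was represented by DESeq2 1.42.0 as an alternative. On simulated counts for this comparison, 132 of 200 genes changed 2-fold were recovered with 9 false calls among 12380 genes, and 196 of 200 changed 4-fold with 10 false calls among 12395. Changed genes were drawn at random from all tested genes, and no library was simulated to deviate as female replicate 4 did. The shares recovered therefore do not apply to receptors with few reads. Ratios were tested by exact permutation. Lengths came from GENCODE M1, and 95.9% of symbols matched.

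The receptors, lists and tests were chosen with earlier results of these data known. Genes named were the 9 receptors, up to 3 genes of each list with the smallest p under 0.05, the 2 nearest profiles of each receptor, and ligands and Insr by their levels, with 1 gene of that rule not reported here. Igfbp3 was named after its values were seen. Gper1, Tfap2c and Sts were not analysed here. Alternatives were DESeq2, limma-voom (limma 3.58.1), DESeq2 size factors, library size alone, other filters, removal of the exon length trend in each library, a replicate block, another length and leaving out each library. Removing the length trend together with female replicate 4 was chosen after seeing the data. Tables and figures were made in Python 3.11.15 (pandas 2.3.3, matplotlib 3.10.9).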

Additional observations from a re-analysis of the deposited data

Results flagged for a closer look

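In groups of 4 libraries, a single library stood far from the others by Dixon's test in 5 of 61 groups tested, where chance would give about 3.05, or about 1 in 20. Esr1 in female replicate 4 was at 2.70 CPM, and the other females were at 10.6 to 10.8 CPM. Igf1 was at 2.95 CPM in female replicate 2 and at 1.35 to 1.46 CPM in the other females. Igf2 was at 0.165 CPM, a single read, in male replicate 3 and at 0 in the other males. Dixon's test always flags a lone read among zeros, so this flag cannot be set against the number given by chance. The summed level of glial markers was 14952 CPM in female replicate 4 and 11639 to 11793 CPM in the other females. That of macrophage markers was 3.96 CPM in male replicate 1 and 8.73 to 9.65 CPM in the other males.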

How the results depend on the processing

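No receptor had an adjusted p under 0.05 under any of the 17 alternatives. Pgr, Nr3c2 and Ghr kept their direction under all of them. The number of receptors with an unadjusted p under 0.05 was 2 instead of 1 with DESeq2 (5.88% of all genes), with limma-voom (7.15%), without the expression filter (6.14%) and with the exon length trend removed (9.34%), and 3 with the length trend removed and female replicate 4 left out, an alternative chosen after seeing the data. It ran from 0 to 2 when single libraries were left out, and was 0 without female replicate 3, where the unadjusted p of Pgr was 0.0545 (edgeR). The count over the pathway lists, 8, became 16 with the length trend removed and 18 with female replicate 4 also left out, and ran from 4 (without male replicate 1) to 17 (without female replicate 4) with 14 without female replicate 1. The share of all tested genes at that level moved too, from 6.98% to 9.34%, 11.1%, 4.53%, 11.1% and 9.42% in the same order.

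Values near 0 changed sign. Esr1 was at -0.09 with limma-voom and from -0.03 to 0.39 when single libraries were left out. Prlr and Nr3c1 were each at 0.01 with the length trend removed. Igf1r was at 0.01 with library size alone, at 0.03 with the length trend removed, at 0.07 with female replicate 4 also left out, and from -0.12 to 0.12 over single libraries. The ratio of Nr3c1 to Nr3c2 ran from -0.71 to 0.10. The cause of these shifts was not tested.

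Whether the replicate numbers pair a female with a male library is not given in the sources used here. Correlations of deviations for equal numbers were 0.0939, -0.109, 0.144 and 0.00476. Those of female replicates 1 to 4 with males of other numbers ran from -0.0703 to -0.023, -0.099 to 0.133, -0.243 to 0.151 and -0.0087 to 0.00251. These values do not decide whether the numbers mark pairs. With the number as a replicate block, Esr1 was at -0.0014 and Pgr at 0.90 (edgeR, unadjusted p = 0.0333, adjusted p = 0.729), and no call of a receptor changed.

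At 4 to 53.8 mean reads per library in Esr2, Oxtr, Pgr, Esr1 and Nr3c2, counting error was 13.6% to 50% of the mean. In Esr1 and Nr3c2 the spread among females was wider than this error, at 46.1% and 51.6% against 13.8% and 13.6%. Without female replicate 4 that spread was 1.18% and 11.6%. With this error and spread, small differences in the receptors named here could not be seen.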
